A study of Mus musculus with 38 samples.

Results

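The genes described here are markers of tuft cells, and they were taken by symbol from a list of 9: Pou2f3, Gfi1b, Avil, Dclk1, Sh2d6, Trpm5, Rgs13, Ltc4s and Il25. The expression tables held 21441 genes each, among which 8 of the 9 were found. The expression of Sh2d6 was not analysed here. Their expression was followed in mouse duodenal villi, duodenal crypts and colon, in animals injected with 1,25(OH)2D3 (the active hormone made from vitamin D) and in animals injected with vehicle.

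Tuft cells are rare epithelial cells of the intestine that carry a tuft of long microvilli and sense the contents of the lumen. Luminal metabolites act on G protein-coupled receptors, calcium is released inside the cell, and a calcium-gated cation channel, Trpm5, opens, as in taste cells. The activated cell releases interleukin 25 and lipid mediators such as cysteinyl leukotrienes, which act on group 2 innate lymphoid cells, and the interleukin 13 made by those cells drives progenitors towards more tuft and goblet cells.

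All libraries came from wild-type C57BL6/J mice that were vitamin D deficient, so the animals of both groups carried the deficiency. A single intraperitoneal dose was given 4 h before death: 10 ng of 1,25(OH)2D3 for each g of body weight in the vitamin D group, and 0.1 ml of propylene glycol and ethanol in the vehicle group. Villi had 7 vitamin D and 6 vehicle libraries, crypts had 6 and 6, and colon had 7 and 6, which makes 38. EDTA freed the villi and crypts from the proximal small intestine, a filter separated them, and the colon layer was obtained by scraping. The labels give the sex as pooled males and females and the age as 10 to 13.3 weeks in one field and 12 to 14 weeks at injection in another. They do not say whether each library came from a separate animal, so p-values measure the spread between these libraries.

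The treatment check gene Cyp24a1, which encodes the enzyme that degrades 1,25(OH)2D3, averaged 3378 ± 877 FPKM in vitamin D villi and 10.98 ± 25.1 FPKM in vehicle villi (SD, n = 7 and 6). Vehicle villus replicate 6 stood apart at 62.2 FPKM, against at most 1.33 FPKM in the other 5, as did vehicle colon replicate 6 at 64.7 FPKM, against at most 5.38 FPKM. FPKM are fragment counts scaled by gene length and by a factor for each library, and how that factor was set is not stated. Cyp24a1 averaged 3624 and 1.62 FPKM in vitamin D and vehicle crypts, and 2388 and 12.8 FPKM in vitamin D and vehicle colon. Depth, recovered from the steps between low values, was 13820000 to 17450000 reads per library. Paneth cell and colonocyte markers separated the tissue labels, while enterocyte markers did not separate vehicle crypts from vehicle villi in every library. Enterocyte sums spanned 7887 to 31455 FPKM in vitamin D crypts and 6602 to 52757 FPKM in vehicle crypts. Paneth cell sums reached at most 1074 and 3189 FPKM in vitamin D and vehicle villi, and 534 and 2542 FPKM in colon. Colonocyte sums reached at most 164 and 226 FPKM in vitamin D and vehicle villi, and 110 and 199 FPKM in crypts. Summed enterocyte markers reached at least 45288 FPKM in vitamin D villi and 38511 FPKM in vehicle villi, summed Paneth cell markers at least 13556 and 12115 FPKM in vitamin D and vehicle crypts, and summed colonocyte markers at least 7271 and 6165 FPKM in vitamin D and vehicle colon. In colon, vitamin D replicates 1 and 2 stood apart, with summed stroma and smooth muscle markers of 2626 and 9038 FPKM, against 24.7 to 216 FPKM in the other vitamin D libraries and 24.8 to 473 FPKM in vehicle libraries.

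Pou2f3 is a POU-family transcription factor without which tuft cells do not form, and POU factors bind an octamer, ATGCAAAT. The promoters of the members, from 250 bases before to 50 bases after the start in RefSeq (GRCm38.p6), were searched on both strands for the octamer and for DR3, the core site AGGTCA repeated in the same direction after a spacer of 3 bases, which the vitamin D receptor binds with its partner. The table held promoters of 7 of the 9 listed genes, Sh2d6 included, with 2 starts for Dclk1, and neither exact word was in any of them. Of all 32851 promoters in the table, 1.74% held the octamer and 0.00609% held the DR3 word, so a promoter with either is rare. The octamer without its last base, ATGCAAA, was searched after the whole word had found no match. It was present 2 times in the promoter of Avil and in no other member, against 4.63% of all promoters with at least 1 match. Every octamer match is also a match to this shorter word. The promoters of Avil, with its matches in capitals, and of Trpm5 and Ltc4s, whose levels parted in villi, are shown in RefSeq's letters, each read 5′ to 3′ on the strand of its gene.
Avil, chr10:127000459-127000758, plus strand: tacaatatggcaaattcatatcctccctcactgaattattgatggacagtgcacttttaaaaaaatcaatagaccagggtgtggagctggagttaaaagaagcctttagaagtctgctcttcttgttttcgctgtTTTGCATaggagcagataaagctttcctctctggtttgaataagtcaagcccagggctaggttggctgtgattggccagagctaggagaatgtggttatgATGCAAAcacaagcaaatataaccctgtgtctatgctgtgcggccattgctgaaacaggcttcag
Trpm5, chr7:143094593-143094892, minus strand: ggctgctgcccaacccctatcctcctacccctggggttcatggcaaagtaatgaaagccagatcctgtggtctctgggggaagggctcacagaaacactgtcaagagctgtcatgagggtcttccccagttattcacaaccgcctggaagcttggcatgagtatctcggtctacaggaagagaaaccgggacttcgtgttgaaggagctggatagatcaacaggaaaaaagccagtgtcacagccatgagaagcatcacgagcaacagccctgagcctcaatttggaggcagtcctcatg
Ltc4s, chr11:50238483-50238782, minus strand: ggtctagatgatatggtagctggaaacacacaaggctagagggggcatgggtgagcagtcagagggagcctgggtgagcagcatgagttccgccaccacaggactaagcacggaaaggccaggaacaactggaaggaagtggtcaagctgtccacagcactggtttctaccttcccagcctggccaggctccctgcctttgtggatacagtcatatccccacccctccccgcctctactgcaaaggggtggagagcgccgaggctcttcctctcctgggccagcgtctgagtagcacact
A match describes letters, and the absence of these words says nothing about which factors act on the genes.

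The members differed in level. To set tissues side by side, FPKM were rescaled within each library to the same total, as TPM. The 3 tables were normalised separately, so the tissues were not tested against each other here. In villi the order of median TPM was Ltc4s (29.0 in vitamin D and 24.5 in vehicle libraries), Trpm5 (11.8 and 10.7), Rgs13 (8.46 and 6.98), Avil (7.16 and 6.88), Dclk1 (3.75 and 3.07), Pou2f3 (1.50 and 1.38), Gfi1b (0.526 and 0.827) and Il25 (0.124 and 0.175). The ranges of Rgs13 and Avil overlapped, and Ltc4s and Trpm5 overlapped as well, while every villus library had more TPM of Dclk1 than of Pou2f3. In crypts, Ltc4s (13.0 and 19.3 TPM in vitamin D and vehicle libraries) and Rgs13 (12.5 and 11.1 TPM) overlapped at the top, followed by Avil (9.87 and 9.80 TPM), Trpm5 (7.82 and 7.92 TPM), Dclk1 (5.78 and 4.67 TPM) and Pou2f3 (3.83 and 3.21 TPM). In colon, Ltc4s (11.2 and 10.8 TPM in vitamin D and vehicle libraries), Rgs13 (9.87 and 10.5 TPM), Avil (7.19 and 7.85 TPM) and Trpm5 (7.18 and 9.29 TPM) had overlapping ranges, Dclk1 (6.04 and 5.15 TPM) had a lower median, and Pou2f3 (2.12 and 2.51 TPM) lay below Dclk1 in every library. Gfi1b and Il25 stayed near or below 1 TPM at the median of all 6 groups. Their depth was small, at 2 to 23 reads per library for Gfi1b and 0 to 11 for Il25.

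**Figure D1:**
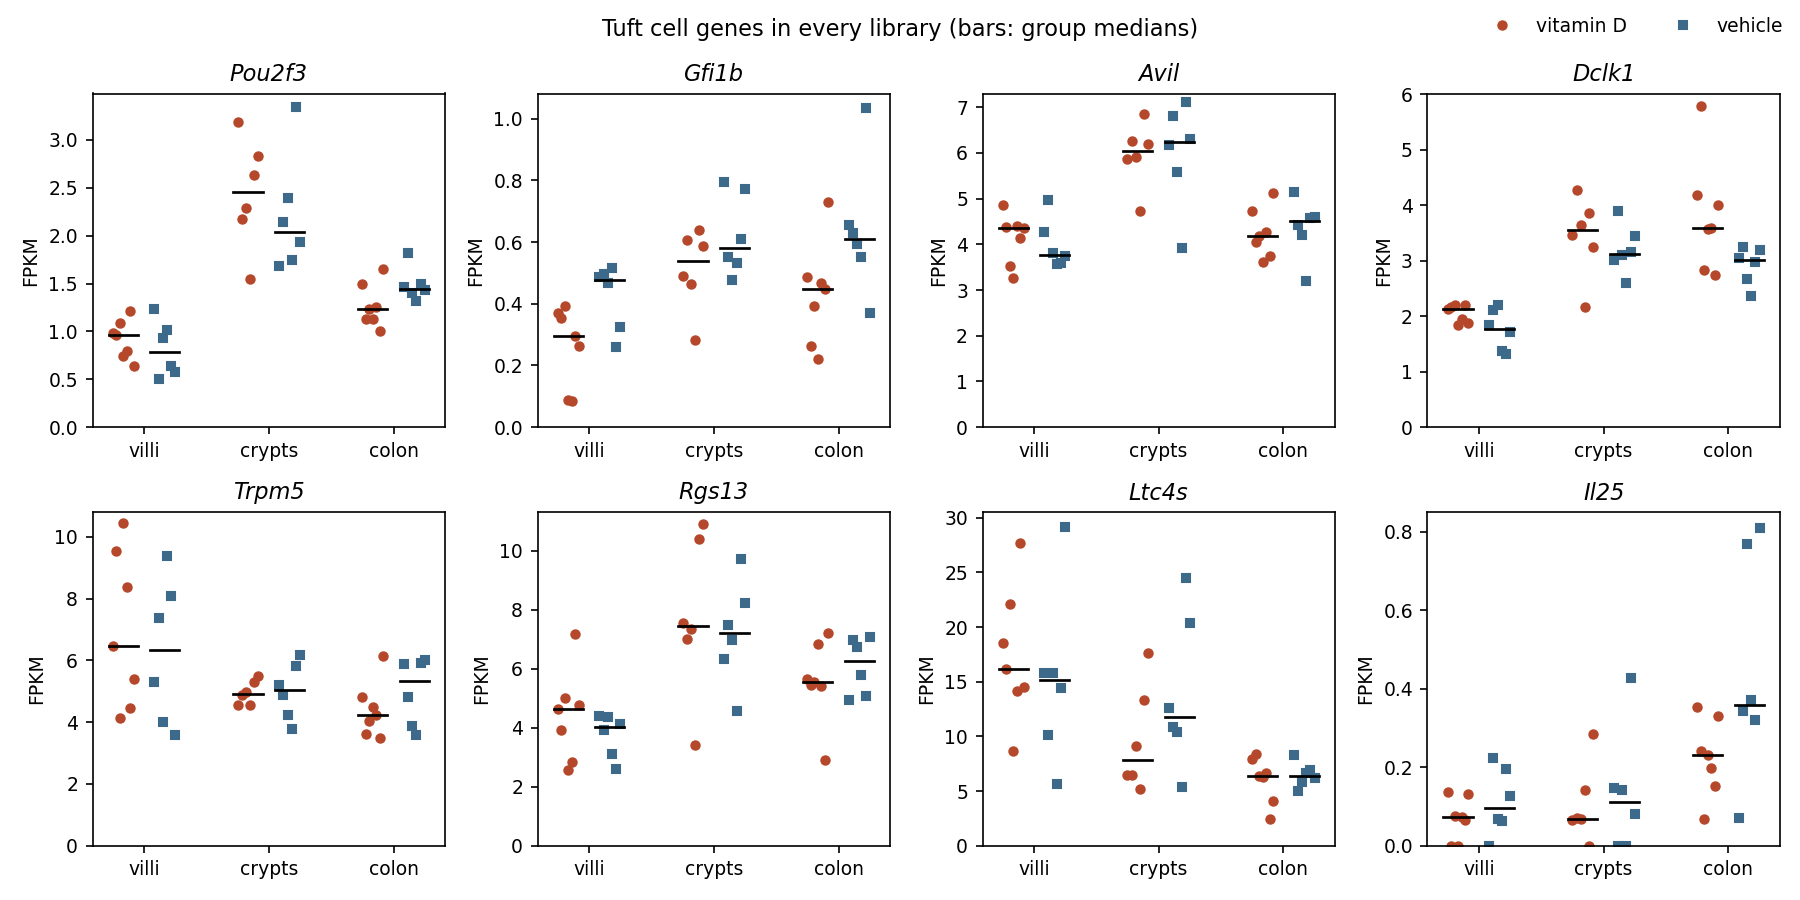
Expression (FPKM, linear axes from 0) of the 8 members in each of the 38 libraries, by tissue, with vitamin D libraries as circles left of vehicle libraries as squares and bars at the group medians. The groups overlap in every panel and tissue; Ltc4s and Trpm5 sit highest in villi, where Ltc4s spans 8.65 to 27.7 FPKM in vitamin D libraries and 5.66 to 29.2 FPKM in vehicle libraries.

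Among the members, Ltc4s and Trpm5 were lower in crypts and colon than in villi, and Pou2f3 was highest in crypts. These are comparisons of vitamin D-treated tissues from the authors' deposited tables. In the authors' deposited table of crypts against villi, 61.9% of genes had an adjusted p under 0.05, in that of colon against villi 64.7%, and in that of colon against crypts 56.5%. Ltc4s, the enzyme that makes leukotriene C4, had a log2 fold change of -1.33 ± 0.32 (SE) in crypts over villi (adjusted p = 9.5e-05) and of -2.22 ± 0.29 in colon over villi (adjusted p = 2.0e-13) in the authors' deposited table. Trpm5 had -0.98 ± 0.22 in crypts over villi (adjusted p = 1.6e-05) and -1.36 ± 0.23 in colon over villi (adjusted p = 5.4e-09) in the authors' deposited table. Pou2f3 had 0.92 ± 0.21 in crypts over villi (adjusted p = 4.4e-05) and -1.02 ± 0.20 in colon over crypts (adjusted p = 2.1e-06) in the authors' deposited table. The ratios of mean FPKM and of mean TPM had the same sign for each of these.

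Avil, an actin-binding protein of the villin family, depended on the scaling. The authors' deposited table gave it -0.66 ± 0.12 in colon over villi (adjusted p = 6.8e-08), whereas the log2 ratio of its mean FPKM was 0.04 and that of its mean TPM -0.01. In colon over crypts Avil was lower on every scale, at -0.57 ± 0.12 in the authors' deposited table (adjusted p = 3.0e-06) and -0.39 for mean TPM. The log2 ratios of mean FPKM lay above the fold changes of the authors' deposited tables by a median of 0.49 in crypts over villi and 0.70 in colon over villi over all genes above 2 FPKM. Rgs13, a regulator of G protein signalling, and Pou2f3 likewise had opposite signs in colon over villi: the authors' deposited table gave -0.36 ± 0.25 (adjusted p = 0.196) and -0.23 ± 0.20 (adjusted p = 0.321), and mean TPM gave 0.27 and 0.43. Dclk1, the doublecortin-like kinase by which tuft cells are often stained, had 0.26 ± 0.14 in crypts over villi (adjusted p = 0.0978) and 0.20 ± 0.16 in colon over villi (adjusted p = 0.270) in the authors' deposited table, and neither passed the threshold.

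The second comparison was between vitamin D and vehicle within a tissue. It was tested with limma on log2(FPKM + 0.5) over all genes with at least 1 FPKM in at least 6 libraries of the tissue, with an adjusted p under 0.05 as the threshold. Of the 8 members, 5 passed the filter in villi, 6 in crypts and 6 in colon; Gfi1b and Il25 passed in none, and Pou2f3 missed it in villi. None of the members tested passed the threshold: 0 of 5 in villi, 0 of 6 in crypts and 0 of 6 in colon, where limma called 2.47%, 1.46% and 0.823% of all genes tested (2.17%, 1.13% and 0.763% higher, and 0.299%, 0.335% and 0.0607% lower). At an unadjusted p under 0.05 the counts were 0, 0 and 0, against 12.2%, 15.3% and 8.05% of all genes tested in villi, crypts and colon. In the fits blocked by replicate number, 15.6% of genes in villi and 24.8% in crypts had an unadjusted p under 0.05. Among the members tested these were Trpm5 and Ltc4s in villi (limma, unadjusted p = 0.0431 and 0.0317) and Ltc4s in crypts (0.0075). In crypts limma called 157 genes in all, 444 with a block for replicate number and 1059 without vehicle crypt replicate 4, and 0 members in each of these fits. The authors' deposited tables called 3.60% of genes in villi, 4.28% in crypts and 1.64% in colon by adjusted p and 0 members in each tissue, and had an unadjusted p under 0.05 for 1, Dclk1 in colon, where 9.25% of all genes had one (8.85% in villi and 12.2% in crypts). The median log2 fold change of the members tested was 0.17 in villi, 0.03 in crypts and -0.16 in colon, against -0.01, -0.01 and 0.00 for all genes tested.

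**Figure D2:**
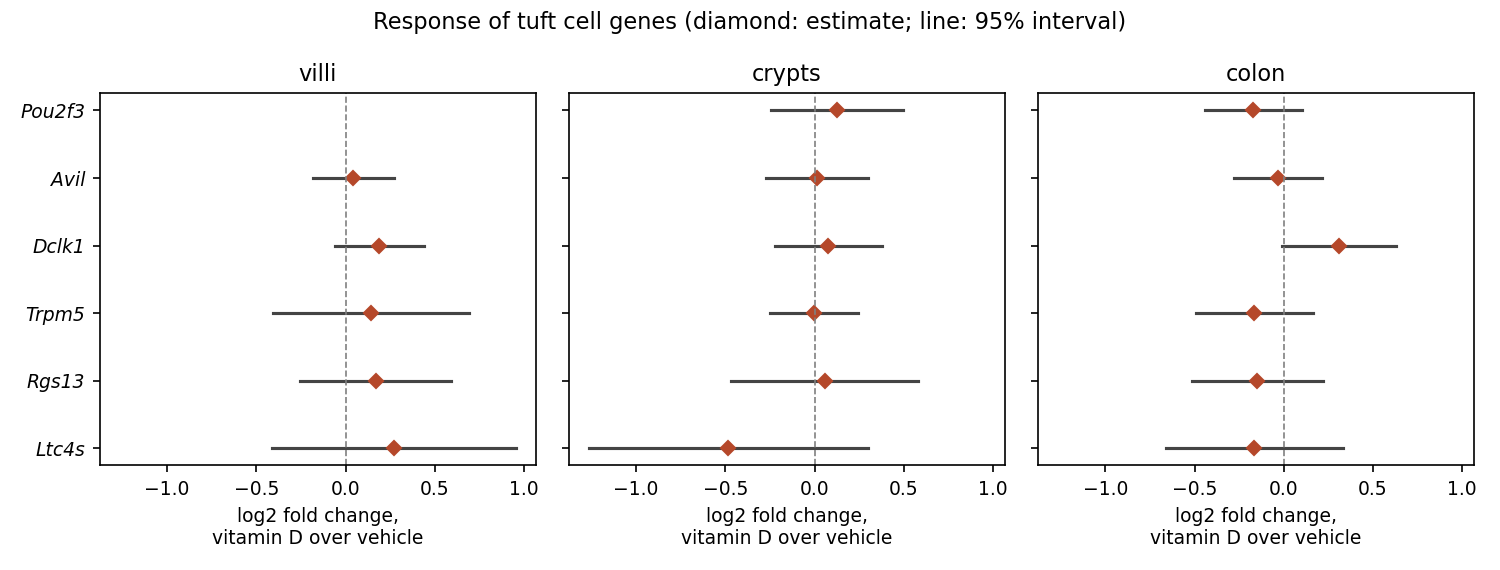
Log2 fold changes of vitamin D over vehicle libraries for the 6 members that passed the filter in at least 1 tissue, with 95% confidence intervals from limma; Pou2f3 in villi was under the filter. Every interval spans 0, that of Dclk1 in colon by the least (-0.01 to 0.63), and those of Ltc4s in villi (-0.41 to 0.95) and crypts (-1.27 to 0.30) are the widest.

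Of the transcription factors, Pou2f3 had 1.55, 2.46 and 3.18 FPKM in vitamin D crypts (lowest, median and highest of 6), against 1.68, 2.04 and 3.34 FPKM in vehicle crypts. The groups covered nearly the same range, and the log2 fold change was 0.12 ± 0.17 (SE; limma, adjusted p = 0.758; 95% interval -0.24 to 0.49). In colon Pou2f3 had 1.00, 1.24 and 1.65 FPKM in vitamin D libraries and 1.32, 1.45 and 1.81 FPKM in vehicle libraries. There 5 of 7 vitamin D libraries lay below every vehicle library, with a log2 fold change of -0.17 ± 0.13 that did not pass the threshold (limma, adjusted p = 0.848). In villi, under the filter, its mean was 0.920 ± 0.202 FPKM in vitamin D and 0.815 ± 0.288 FPKM in vehicle libraries (SD, n = 7 and 6).

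Gfi1b, a zinc-finger repressor that marks tuft cells and is best known from blood cell formation, was under the filter throughout. Its mean was 0.263 ± 0.129 FPKM in vitamin D villi and 0.426 ± 0.106 FPKM in vehicle villi (SD, n = 7 and 6). In crypts it was 0.512 ± 0.130 and 0.623 ± 0.132 FPKM in vitamin D and vehicle libraries (n = 6 each), and in colon 0.429 ± 0.168 and 0.639 ± 0.218 FPKM (n = 7 and 6). The mean of the vitamin D libraries was the lower in each tissue, with overlapping groups. In a fit of all genes without the filter, the log2 fold changes were -0.29 ± 0.12 in villi (limma, unadjusted p = 0.0318, adjusted p = 0.469), -0.15 ± 0.11 in crypts (adjusted p = 0.625) and -0.29 ± 0.14 in colon (adjusted p = 0.800), and 2 to 14 reads per library stood behind the villus values. The authors' deposited tables gave -0.68 ± 0.42, -0.27 ± 0.31 and -0.57 ± 0.37 for villi, crypts and colon, none past the threshold. In villi the vitamin D library was the lower in 6 of 6 pairs of the same number, and the fit blocked by replicate number, without the filter, gave -0.29 ± 0.10 (limma, unadjusted p = 0.0260, adjusted p = 0.334). In that fit 11.7% of all genes had an unadjusted p under 0.05. How many of all genes went the same way in 6 of 6 pairs was not counted, for Gfi1b or for the other members.

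Avil, of the structural genes, had 3.25, 4.37 and 4.86 FPKM in vitamin D villi (lowest, median and highest of 7), against 3.57, 3.77 and 4.98 FPKM in vehicle villi. Its groups overlapped throughout, and the log2 fold changes were 0.04 ± 0.11 in villi, 0.01 ± 0.13 in crypts and -0.03 ± 0.12 in colon (limma, adjusted p = 0.918, 0.974 and 0.972). The intervals of Avil were among the narrowest of the members, with bounds of -0.18 and 0.27 in villi, -0.27 and 0.30 in crypts and -0.28 and 0.22 in colon.

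Dclk1 had 1.84, 2.13 and 2.21 FPKM in vitamin D villi and 1.33, 1.77 and 2.19 FPKM in vehicle villi. The vitamin D libraries lay in or just above the upper part of the vehicle range, and the log2 fold change was 0.19 ± 0.12 (limma, adjusted p = 0.579). The vitamin D library was the higher in 6 of 6 villus pairs of the same number, with 0.21 ± 0.11 in the blocked fit (limma, adjusted p = 0.418). In crypts 1 vitamin D library lay above and 1 below every vehicle library, at 2.17, 3.55 and 4.27 FPKM in vitamin D libraries and 2.60, 3.12 and 3.90 FPKM in vehicle libraries, with a log2 fold change of 0.08 ± 0.14 (adjusted p = 0.822).

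In colon Dclk1 had 4.18, 5.79, 2.84, 3.56, 3.59, 2.74 and 4.00 FPKM in vitamin D replicates 1 to 7, against 3.05, 3.25, 2.68, 2.37, 2.98 and 3.19 FPKM in vehicle replicates 1 to 6. Of the 7 vitamin D libraries, 5 lay above every vehicle library. Among those 5 were replicates 4, 5 and 7, with 173, 42.8 and 30.6 FPKM of summed stroma markers. Replicates 3 and 6, with 216 and 24.7 FPKM of stroma markers, did not lie above every vehicle library. The log2 fold change of Dclk1 was 0.31 ± 0.15 and did not pass the threshold (limma, unadjusted p = 0.0574, adjusted p = 0.646). In the authors' deposited table it was 0.38 ± 0.17 (p = 0.0250, adjusted p = 0.340). The highest values belonged to vitamin D replicates 2 and 1, the libraries with 9038 and 2626 FPKM of summed stroma markers. Dclk1 is also made by neurons, and the summed markers of enteric neurons and glia were 103 and 58.2 FPKM in those libraries, against 1.93 to 7.06 FPKM in the other vitamin D libraries and 2.10 to 12.4 FPKM in vehicle libraries. Of the 11 stroma markers, 10 were tested in colon, all 10 had a positive log2 fold change with a median of 1.13, and limma called 0. None of the 11 was at 0 in every library. The part of stroma and neurons in the Dclk1 values of vitamin D replicates 1 and 2 was not tested. Without these libraries, a setting chosen after seeing the data, Dclk1 had a log2 fold change of 0.16 ± 0.13 (limma, adjusted p = 1.00), and limma called 57 genes in colon in place of 95.

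**Figure D3:**
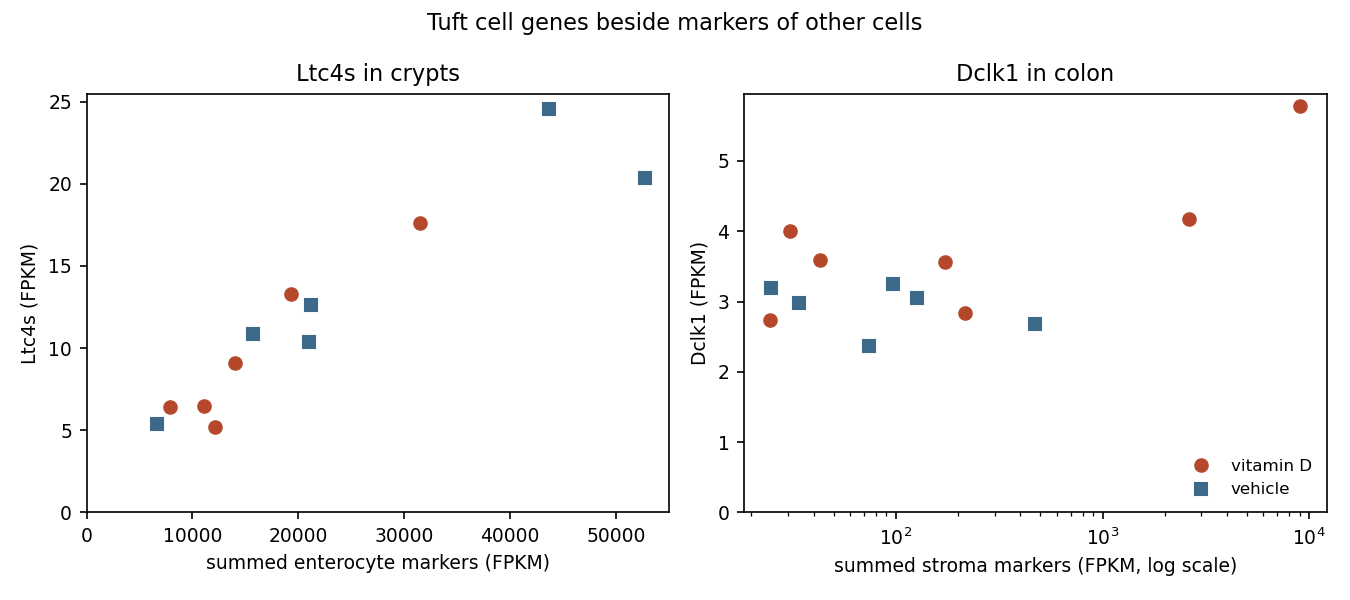
Left, Ltc4s (FPKM) against the summed level of 10 enterocyte markers (FPKM) in 12 crypt libraries; right, Dclk1 (FPKM) against the summed level of 11 stroma markers (FPKM, log axis) in 13 colon libraries, with vitamin D libraries as circles and vehicle libraries as squares. The crypt libraries with the most enterocyte markers have the most Ltc4s, and the highest Dclk1 values of colon, 5.79 and 4.18 FPKM, are those of the libraries with 9038 and 2626 FPKM of stroma markers.

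In the signalling arm, Trpm5 had 4.13, 6.46 and 10.5 FPKM in vitamin D villi (lowest, median and highest of 7) and 3.57, 6.34 and 9.39 FPKM in vehicle villi. It varied more than 2-fold within each group, and the log2 fold change was 0.14 ± 0.26 (limma, adjusted p = 0.887). Within the 6 pairs of villus libraries of the same number the vitamin D library was the higher in 6, and the blocked fit gave 0.19 ± 0.08 (limma, unadjusted p = 0.0431, adjusted p = 0.297), which did not pass the threshold. In crypts Trpm5 had 4.54, 4.92 and 5.49 FPKM in vitamin D libraries and 3.78, 5.04 and 6.16 FPKM in vehicle libraries, a narrower span with a log2 fold change of -0.0012 ± 0.11 (adjusted p = 0.996; 95% interval -0.25 to 0.24). In colon it had 3.48, 4.22 and 6.15 FPKM in vitamin D libraries and 3.59, 5.35 and 6.02 FPKM in vehicle libraries, with a log2 fold change of -0.17 ± 0.15 (adjusted p = 0.878).

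Rgs13 speeds the shut-off of G protein signals. It had 2.56, 4.65 and 7.17 FPKM in vitamin D villi and 2.61, 4.02 and 4.38 FPKM in vehicle villi, with a log2 fold change of 0.17 ± 0.20 (limma, adjusted p = 0.793). It had 3.43, 7.45 and 10.9 FPKM in vitamin D crypts and 4.56, 7.22 and 9.73 FPKM in vehicle crypts, with a log2 fold change of 0.06 ± 0.24 (adjusted p = 0.934). The vehicle libraries lay inside the span of the vitamin D libraries in both tissues. In colon Rgs13 had 2.90, 5.56 and 7.20 FPKM in vitamin D libraries and 4.95, 6.27 and 7.06 FPKM in vehicle libraries, with a log2 fold change of -0.15 ± 0.17 (adjusted p = 0.896).

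Of the effectors, Ltc4s had 6.42, 6.50, 9.11, 5.18, 13.3 and 17.6 FPKM in vitamin D crypt replicates 1 to 6, against 12.6, 10.9, 10.4, 5.37, 24.5 and 20.4 FPKM in vehicle crypt replicates 1 to 6. The groups overlapped, and in each of the 6 pairs of libraries with the same number the vitamin D library was the lower. The share of all genes with the same direction in all 6 pairs was not computed. In the blocked fit of crypts 24.8% of all genes had an unadjusted p under 0.05 (limma). The log2 fold change of Ltc4s was -0.48 ± 0.36 (limma, adjusted p = 0.555). In the fit blocked by replicate number it was -0.48 ± 0.14 (limma, unadjusted p = 0.0075, adjusted p = 0.0857), which did not pass the threshold either. Absorptive enterocyte markers moved with it. Their sum was 7887, 11059, 14031, 12105, 19343 and 31455 FPKM in vitamin D crypt replicates 1 to 6, against 21237, 15755, 21050, 6602, 43659 and 52757 FPKM in vehicle crypt replicates 1 to 6, and the vitamin D library was the lower in 5 of 6 pairs. The 3 crypt libraries with the most Ltc4s, vehicle replicates 5 and 6 and vitamin D replicate 6, were also the 3 with the most enterocyte markers. Of the 10 enterocyte markers, 9 had a negative log2 fold change in crypts with a median of -0.57, limma called 0, and none was at 0 in every library. Their part in the Ltc4s values was not tested. In bulk tissue, fewer cells of a type and less RNA per cell cannot be told apart.

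Ltc4s had 8.65, 16.2 and 27.7 FPKM in vitamin D villi (lowest, median and highest of 7) and 5.66, 15.1 and 29.2 FPKM in vehicle villi, with a log2 fold change of 0.27 ± 0.32 (limma, adjusted p = 0.795). The vitamin D library was the higher in 4 of 6 villus pairs, and the blocked fit gave 0.30 ± 0.12 (limma, unadjusted p = 0.0317, adjusted p = 0.254). Those pairs follow the title numbers, by which vehicle villus replicate 6 (29.2 FPKM) stands beside vitamin D replicate 6 (27.7 FPKM). The column names set it beside vitamin D replicate 7 (14.5 FPKM). In colon it had 2.41, 6.35 and 8.37 FPKM in vitamin D libraries and 4.99, 6.39 and 8.31 FPKM in vehicle libraries, with a log2 fold change of -0.17 ± 0.23 (adjusted p = 0.909). The groups overlapped in both tissues. Mast cells also make leukotriene C4. The 12 mast cell markers summed to 2.26 to 3.30 FPKM in vitamin D and 2.66 to 3.77 FPKM in vehicle villi, 6.20 to 10.7 and 4.03 to 10.8 FPKM in vitamin D and vehicle crypts, and 22.2 to 30.0 and 18.5 to 29.1 FPKM in vitamin D and vehicle colon. In colon most of the sum was Kit (20.9 and 20.5 FPKM in vitamin D and vehicle libraries), which other cells make as well. The mast cell protease Mcpt1 averaged 2.08 and 2.12 FPKM in vitamin D and vehicle crypts and 1.62 and 1.56 FPKM in vitamin D and vehicle colon, while Ms4a2, a chain of the IgE receptor, was listed at 0 in all crypt and colon libraries. Limma called 0 of the 2 mast cell markers tested in crypts and 0 of 2 in colon, and their part in the Ltc4s values was not tested. Il25, the cytokine by which tuft cells signal to innate lymphoid cells, averaged 0.225 ± 0.0990 FPKM in vitamin D colon and 0.448 ± 0.286 FPKM in vehicle colon (SD, n = 7 and 6), from 1 to 11 reads per library. Its groups overlapped, and the fit without a filter gave -0.34 ± 0.18 (limma, adjusted p = 0.829). In villi and crypts Il25 had 0 to 6 reads per library and no direction can be read.

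The response of the members was also compared between tissues, as the difference of log2 fold changes in 1 limma fit over all 38 libraries. Over all genes, 0.0316%, 0.467% and 0.0675% differed between crypts and villi, colon and villi, and colon and crypts. Of 5, 5 and 6 members tested, 0 passed the threshold in each. The largest difference among them was that of Ltc4s between crypts and villi, -0.76 ± 0.46 (limma, adjusted p = 0.734), followed by Ltc4s between colon and villi, -0.44 ± 0.45 (adjusted p = 0.799). The fit took the 38 libraries as independent, and the labels do not say whether tissues of the same animal are among them. A missed threshold does not show that the responses were alike.

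How the members varied from library to library within the groups differed between tissues. For the 5 members that passed the filter in every tissue (Dclk1, Trpm5, Ltc4s, Avil and Rgs13), deviations from the group means were correlated for the 10 pairs in each tissue, 30 in all, with permutation p-values adjusted over the 30. In crypts all 10 pairs were positive, with r of 0.36 to 0.90 over 12 libraries, and 7 had an adjusted p under 0.05, against 3 by rho (Ltc4s with Trpm5, Avil with Trpm5 and Rgs13 with Ltc4s). Without the 2 libraries farthest from the median of the first gene of a pair, 9 of the 10 crypt pairs were positive, and Rgs13 with Dclk1 changed most, with r = 0.70 over all 12 libraries and -0.14 without those 2. In colon all 10 were positive by r, with 0.12 to 0.81 over 13 libraries, and 9 by rho, but 6 without the 2 libraries farthest from the median. The 4 pairs of Rgs13 in colon rested on such libraries, with r of -0.41 to -0.00072 without them, and Rgs13 with Ltc4s had rho = -0.21. In colon 1 pair passed, Avil with Trpm5 (r = 0.81, rho = 0.82, permutation p = 0.00069 and 0.00089, adjusted p = 0.0052 and 0.0067; r = 0.66 without the 2 libraries farthest from the median of Avil). In villi 6 of 10 were positive, with r of -0.82 to 0.64, and 3 passed by r and 3 by rho. The share of pairs of all genes that would pass was not computed, so these counts are not shown to be particular to the members. Genes outside the tuft cell lists also followed the mean of the 5 members in crypts, with r = 0.93 for Ugt1a1 and 0.98 for Pipox.

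In villi Trpm5 ran against Ltc4s and Rgs13. With Ltc4s its r was -0.82 and rho -0.85 over 13 villus libraries (permutation p = 0.00029 and 0.00043, adjusted p = 0.0029 and 0.0064), and r was -0.75 without the 2 libraries farthest from the median of Ltc4s. It was -0.80 within the 7 vitamin D libraries and -0.85 within the 6 vehicle libraries. With Rgs13 its r was -0.79 and rho -0.83 (permutation p = 0.0011 and 0.00071, adjusted p = 0.0065 and 0.0067), and r was -0.75 without the 2 libraries farthest from the median of Rgs13. Vitamin D villus replicate 4 had the most Trpm5 of all (10.5 FPKM) with 8.65 FPKM of Ltc4s, and vehicle villus replicate 4 had 9.39 FPKM of Trpm5 with 5.66 FPKM of Ltc4s, the least in each group. At the other end, vehicle villus replicate 6 had 3.57 FPKM of Trpm5 with 29.2 FPKM of Ltc4s.

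In crypts the same pair ran together, with r = 0.90 and rho = 0.92 over 12 libraries (permutation p = 0.00013 for both, adjusted p = 0.0029 and 0.0039; r = 0.86 without the 2 libraries farthest from the median of Ltc4s). Its r was 0.96 within the 6 vitamin D libraries and 0.94 within the 6 vehicle libraries. Rgs13 with Ltc4s had r = 0.84 and rho = 0.83 (permutation p = 0.00025 and 0.0014, adjusted p = 0.0029 and 0.0085; r = 0.86 without the 2 libraries farthest from the median of Rgs13). In colon Trpm5 with Ltc4s had r = 0.12 and rho = 0.02 (permutation p = 0.711 and 0.964, adjusted p = 0.736 and 0.964). Libraries of the same number deviated together in villi and crypts, with r above 0.1 in all 6 pairs of each. The vehicle library matched its own number best in 3 of 6 pairs in each. Libraries of the same number may therefore not be fully independent, and these p-values may be too small. The sample names in the tables followed more than 1 style, and within the 8 libraries of the plainer style the r of Trpm5 with Ltc4s was -0.84 in villi, 0.82 in crypts and 0.32 in colon.

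**Figure D4:**
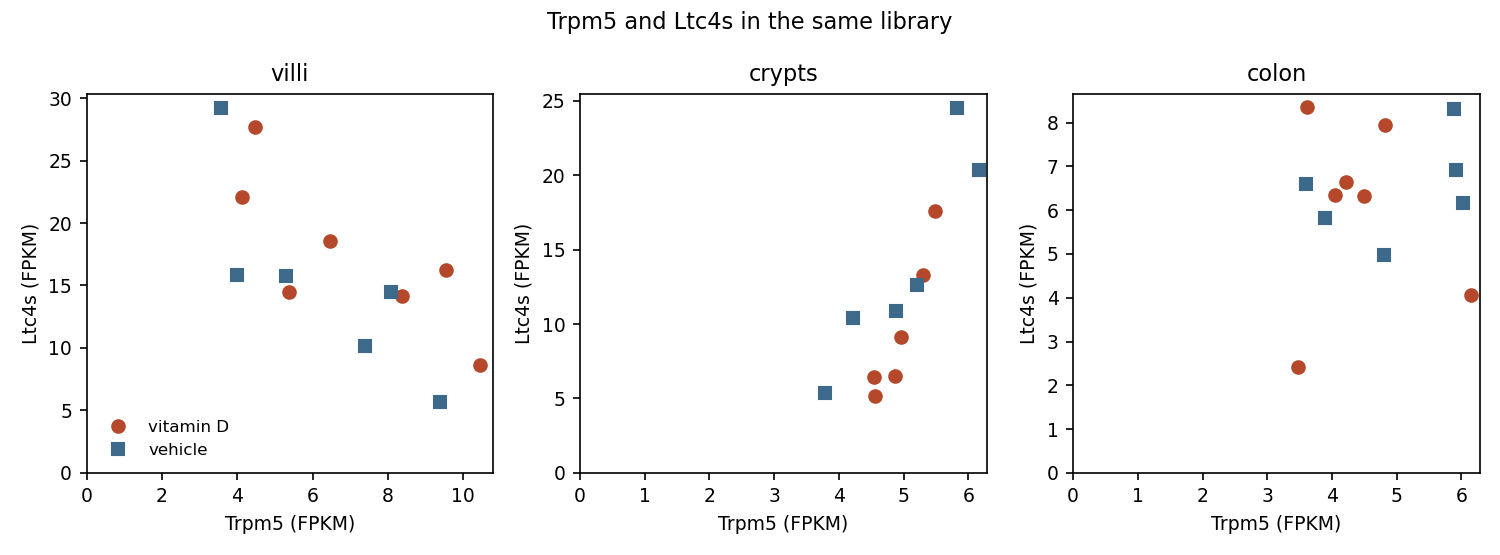
Ltc4s against Trpm5 (both FPKM, linear axes from 0) in the libraries of villi, crypts and colon, with vitamin D libraries as circles and vehicle libraries as squares. The points fall in villi (r = -0.82), rise in crypts (r = 0.90) and show little slope in colon (r = 0.12), with both groups along the same course.

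Replicate 4 held the low end in several groups. Of those 5 members, vitamin D villus replicate 4 was the lowest of its group in 4, all but Trpm5, in which it was the highest. Vitamin D crypt replicate 4 was the lowest in 4, and vehicle crypt replicate 4 was the lowest in 5 of 5. The summed level of the 8 members spanned 22.1 to 47.1 FPKM in vitamin D crypts and 22.5 to 54.7 FPKM in vehicle crypts, a spread wider than the distance between the medians of 32.8 and 36.3 FPKM. In villi the sums were 27.6 to 47.2 FPKM in vitamin D and 24.7 to 43.4 FPKM in vehicle libraries, and in colon 16.9 to 29.7 and 23.8 to 29.7 FPKM.

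Among 9306 genes that passed the filter in every tissue, those most like the members were found by the correlation of their deviations with the mean standardised deviation of the same 5 members over 38 libraries. The genes most like them included Ugt1a1 (r = 0.80), Ambp (0.79), Dio1 (0.79), Prkg2 (0.78), Pipox (0.77), Slc47a1 (0.77), Immp2l (0.76), Tmem195 (0.76) and Sytl3 (0.76), none of which is in a tuft cell list used here. Of the tuft cell list genes, Cd300lf ranked 28 (0.71), Bmx 34 (0.70), Alox5ap 66 (0.66), Spib 128 (0.62) and Alox5 251 (0.57). Others had a negative r: Sox9 ranked 5126 (-0.05), Lyn 5427 (-0.07), Itpr3 6889 (-0.20), Krt18 6910 (-0.20) and Plcg2 8597 (-0.39). The 5 members were not all alike themselves. Against the mean of the other 4, r over 38 libraries was -0.03 for Trpm5 (-0.70 in villi) and 0.45 to 0.71 for the rest. Within tissues the r of Ugt1a1 was 0.91 in villi, 0.93 in crypts and 0.56 in colon, and that of Spib 0.78, 0.91 and -0.06. These values describe libraries that share their preparation, and carry no test.

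The wider set of tuft cell genes was read from the same fits. Of 12 genes of chemosensory signalling, 5 were tested in villi, 5 in crypts and 6 in colon, and 0 rose or fell in each tissue, with medians of 0.17, -0.18 and -0.13. Itpr3, the calcium release channel of the taste pathway, had a log2 fold change of 0.42 ± 0.20 in villi (limma, adjusted p = 0.419) and 0.42 ± 0.12 in crypts (limma, unadjusted p = 0.0054, adjusted p = 0.134), and neither passed. Gnat3, the G protein of taste cells, had 1.96 and 2.62 FPKM in vitamin D and vehicle colon (limma, adjusted p = 0.718), and its partner Gng13 had 1.39 and 1.27 FPKM in vitamin D and vehicle crypts (adjusted p = 0.969). Both were under the filter in the other tissues, and Gnb3, Tas1r1, Tas1r3, Plcb2 and Sucnr1 were under it in all 3.

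Of 8 genes of eicosanoid synthesis, 3 were tested in villi, 3 in crypts and 6 in colon, with medians of -0.09, 0.07 and 0.15. Ptges, an inducible synthase of prostaglandin E2, rose in colon to 4.96 FPKM in vitamin D libraries, against 1.23 FPKM in vehicle libraries, with a log2 fold change of 1.57 ± 0.25 (limma, adjusted p = 0.0053). The groups did not overlap, with 2.08 to 8.01 FPKM in vitamin D and 0.925 to 1.61 FPKM in vehicle libraries. The summed list was 36.5 and 52.3 FPKM in the stroma-rich vitamin D replicates 1 and 2, against 22.9 to 28.2 FPKM in the other vitamin D libraries and 18.3 to 26.9 FPKM in vehicle libraries, and without those 2 the change of Ptges was 1.62 ± 0.28 (limma, adjusted p = 0.0224). Ptges is made by stromal and epithelial cells besides tuft cells. Alox5ap and Alox5, which act upstream of Ltc4s in leukotriene synthesis, had log2 fold changes of -0.27 and 0.10 in villi, -0.25 and 0.07 in crypts and 0.18 and -0.14 in colon, none past the threshold.

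Of 26 genes of tuft cell identity and structure, 17 were tested in villi, 19 in crypts and 20 in colon, with medians of 0.05, -0.07 and -0.16. Cd24a, a surface glycoprotein that other crypt cells make as well, rose in crypts to 440 FPKM in vitamin D libraries, against 230 FPKM in vehicle libraries, with a log2 fold change of 0.93 ± 0.16 (limma, adjusted p = 0.0091). The other identity genes tested in crypts and all those tested in villi and colon did not pass the threshold. Il17rb, a receptor subunit for interleukin 25 that tuft cells carry, had 0.844 and 1.24 FPKM in vitamin D and vehicle crypts (log2 fold change -0.38 ± 0.14, adjusted p = 0.205) and 1.43 and 2.15 FPKM in vitamin D and vehicle colon (-0.49 ± 0.23, adjusted p = 0.637). Spib, an Ets-family factor, had a log2 fold change of -0.21 ± 0.08 in colon (adjusted p = 0.491).

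Of 15 genes of the type 2 immune circuit around tuft cells, 7 were tested in each tissue, with medians of -0.16 in villi, -0.32 in crypts and -0.11 in colon. Il17ra, the shared receptor subunit through which interleukin 25 and interleukin 17 signal, rose in villi to 8.12 FPKM in vitamin D libraries, against 6.15 FPKM in vehicle libraries, with a log2 fold change of 0.38 ± 0.09 (limma, adjusted p = 0.0324). This call was lost in the blocked fit (limma, adjusted p = 0.0648) and without any 1 of 7 libraries, vitamin D replicates 1, 2, 4, 5 and 7 and vehicle replicates 4 and 6 (limma, adjusted p = 0.0576 to 0.0786). In crypts Stat6, which relays interleukin 4 and 13 signals, had 46.5 and 59.1 FPKM in vitamin D and vehicle libraries (-0.34 ± 0.09, adjusted p = 0.0809), and Areg, an epidermal growth factor receptor ligand, had 7.46 and 2.85 FPKM (1.18 ± 0.31, adjusted p = 0.0862), and neither passed. Il4 and Il13 averaged under 0.03 FPKM in every group.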

How the data were processed

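The members and the other gene lists were chosen with earlier results of these data known. The authors deposited FPKM per gene in 1 table per tissue, each normalised separately, and tables of their own comparisons. Those give a mean signal level per gene, a log2 fold change with its error, a test score, and a p-value with its adjusted value, per the file headers of the deposited tables. The submitters' processing notes name kallisto 0.45.0, DESeq 1.28.1, DESeq2 and the build mm9, without their roles, and the steps that gave the FPKM are not stated.

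From the FPKM, log2(FPKM + 0.5) was fitted with limma 3.58.1 (R 4.3.3; trended prior) within each tissue, for genes with at least 1 FPKM in at least 6 libraries, with Benjamini-Hochberg adjustment over all genes tested and a threshold of 0.05. Differences of response came from 1 fit over 38 libraries. The pseudocount understates fold changes of low genes. Reads were recovered from the steps between low values (82.7 to 92.5% of low values whole within 0.05 of a read) and used for depth alone. Correlations had 100000 permutations. The limma fits were tested on simulated data.

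Libraries were grouped by title. Same-numbered libraries were read as pairs in villi and crypts. Their deviations correlated above 0.1 in all 6 pairs (r = 0.102 to 0.465 in villi and 0.119 to 0.545 in crypts). In colon 3 of 6 pairs did (r = 0.0569 to 0.572), and pair directions were not read there. The vehicle library matched its own number best in 3 of 6 pairs in villi, 3 in crypts and 1 in colon. Nothing in the labels states a pairing. The text names all members, Cyp24a1, up to 3 genes of each other list by smallest p in a tissue, and genes among the 10 most like the members, of which 1 is not reported here. Other list genes, the libraries of replicate 4 and the Trpm5 and Ltc4s pair were singled out after their values were seen. Promoter sequences are RefSeq's, matched by symbol, in GRCm38.p6. Alternatives were other pseudocounts, filters, scalings, a replicate block, sample name style, each library left out, and, chosen after seeing the data, colon without the libraries rich in stroma markers and the called list genes under every alternative.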

Additional observations from a re-analysis of the deposited data

Results flagged for a closer look

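In 3 of 48 groups of libraries, 1 library lay far from the rest of its group, judged by the gap to its nearest neighbour over the range (Dixon's test); chance alone gives this in about 1 in 20 groups. Rgs13 in vitamin D colon replicate 6 was 2.901 FPKM, against 5.407 FPKM for the next lowest; that library was also the lowest of its group for Dclk1, Trpm5 and Ltc4s. Pou2f3 in vehicle colon replicate 2 was 1.814 FPKM, against 1.493 FPKM for the next highest. Il25 in vehicle crypt replicate 5 was 0.4278 FPKM, against 0.146 FPKM for the next highest, in a tissue with 0 to 6 reads of Il25 per library.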

How the results depend on the processing

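In all 69 refits of a tissue under the alternatives, 0 members were called, and the lowest adjusted p of any member was 0.0857, for Ltc4s in crypts with the replicate block. Of 390 refitted member fold changes 369 kept their sign, and of 575 differences of response 563 did. Trpm5 in crypts was 0.040 after rescaling to TPM. In the plain-named libraries alone, Trpm5 in crypts was 0.068, Rgs13 in crypts -0.036, Avil in villi -0.053, Ltc4s in colon 0.17, and the difference of response of Avil 0.089 in crypts against villi and 0.034 in colon against villi. Without the stroma-rich colon libraries, that of Dclk1 in colon against villi was -0.025, and 57 genes were called in colon. Leaving out 1 library gave ranges of -0.094 to 0.072 for Avil, -0.060 to 0.25 for Rgs13 and -0.071 to 0.057 for Trpm5 in crypts, and of -0.11 to 0.015 for Avil and -0.25 to 0.015 for Ltc4s in colon. For differences of response they were -0.14 to 0.028 (Avil) and -0.23 to 0.084 (Rgs13) in crypts against villi, and -0.12 to 0.063 (Avil) in colon against crypts.

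Counts over all genes moved more. With the replicate block by title numbers they were 444 in crypts and 147 in colon (157 and 95 without it), and 10, 151 and 24 for crypts against villi, colon against villi and colon against crypts (3, 44 and 7 without it). Pairing by column names gave 444 in crypts and 7, 103 and 15 for the differences, with Rgs13 in crypts against villi at 0.0020. Name style as a covariate gave 391 in crypts and 5, 131 and 12, and the plain-named libraries alone gave 92 in villi (240 over all libraries), 68 in crypts and 1, 24 and 2. Without a filter, crypts against villi had 12 and colon against crypts 26; a filter at 2 FPKM gave 1 and TPM 0 for crypts against villi. Leaving out 1 library, crypts had 105 to 1059 (highest without vehicle replicate 4) and colon against crypts 4 (without vehicle colon replicate 6) to 11 (without vitamin D crypt replicate 6). Il17ra in villi was also no longer called without a filter (adjusted p = 0.0535), after rescaling to TPM (0.0905), when paired by column names (0.0506) and within plain-named libraries (0.206), as was Cd24a in crypts within plain-named libraries (0.103). The cause of these shifts was not tested. Low reads limit Gfi1b and Il25, and 6 or 7 libraries per group leave intervals that hold sizeable changes of Ltc4s and Trpm5.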
